A study of Glycine max with 24 samples.

Results

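Glyma10g37640, annotated as SCARECROW-like 8, and Glyma11g14670, annotated as SCARECROW-like 14, are a pair of soybean loci that code for GRAS transcription regulators. The 2 loci were chosen by locus name with earlier results of these libraries known. The levels and calls of the members are therefore a description, given without p-values. Every transcript of either locus was taken, which gave 1 transcript for each, Glyma10g37640.1 and Glyma11g14670.1, or 2 of the 73320 transcripts and 2 of the 54175 loci in the tables. RNA was sequenced from 24 samples of untreated Williams-82 soybean, with 3 biological replicates at each of 3 cotyledon stages and 5 leaf stages. The cotyledon stages, named C-I to C-III, were sampled 4, 15 and 27 days after planting, as closed green cotyledons just after emergence, open green cotyledons, and cotyledons that had begun to yellow and shrink. Stage L-I is the V3 stage, and the labels place the later ones, up to L-V, at 2, 4, 6 and 7 weeks after it, whereas the methods of the study give longer intervals, so only the order of the leaf stages was used. A cotyledon replicate was a pair of cotyledons and a leaf replicate a whole trifoliate, each from another plant at the same node. Seedlings for C-I grew on agar medium in closed boxes and the other plants in soil, so that age and growth conditions cannot be told apart in any comparison with C-I.

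GRAS proteins are regulators of transcription in plants, named after the founding members GAI, RGA and SCARECROW. GAI and RGA belong to the DELLA group, which holds back growth responses until gibberellin triggers its breakdown, while SCARECROW acts in the patterning of root tissues. In Arabidopsis, SCARECROW-like 14 binds TGA bZIP factors and switches on genes for the detoxification of foreign compounds, such as glutathione S-transferases, glycosyltransferases and cytochromes P450. Cotyledons and leaves both become photosynthetic, and both later export their nutrients and senesce.

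The values used here are normalized counts, that is, reads unique to a transcript divided by the size factor of the library. Levels were compared only within a tissue and a transcript, since each tissue had its own scaling and transcript lengths were not used. Reads that matched more than 1 transcript had been discarded, so related loci were seen only through their unique reads. Libraries held 2163050 to 20839594 such reads in cotyledon and 1852184 to 6887154 in leaf, and 3 reads, taken as the limit of detection of a library, equalled between 0.833 and 8.96 normalized counts in cotyledon libraries and between 1.71 and 8.52 in leaf libraries. Summed counts of 8 seed storage protein loci were 433 to 603 in C-I, 7.97 to 19.05 in C-II and 1.60 to 4.998 in C-III, and at most 5.89 in any leaf library. A list of 5 NAC loci orthologous to the Arabidopsis senescence factor AtNAP summed to 227 to 473 in C-I, 562 to 737 in C-II and 1445 to 1948 in C-III, and to 11.4 to 35.5 in L-I, 116 to 152 in L-II, 285 to 359 in L-III and 423 to 676 in L-IV. The cotyledon sums hide a split at the earlier step, since in C-II against C-I 2 of the 5 loci were called higher and 1 lower, with a median log2 fold change of -0.62, while in C-III against C-I 3 were called higher and all 5 had a positive value. In L-V the sum was 5850 in replicate 1, 411 in 1 of the other libraries and 809 in the other, so replicate 1 stood apart, and log2 differences and counts for L-V against L-I are also given without it. Log2 values of replicates correlated at 0.907 to 0.967 in cotyledon, and at 0.841 to 0.955 in leaf. In whole organs, fewer cells that express a gene and less of its RNA per cell cannot be told apart.

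In the cotyledon, Glyma10g37640.1 (SCARECROW-like 8) was barely detected at C-I and was well detected at both later stages. The C-I libraries had 5.97, 6.15 and 4.42 normalized counts, which rest on 2, 7 and 11 reads. C-II libraries had 98.0, 167 and 187, and C-III libraries 232, 203 and 137. Every library of C-II and of C-III therefore lay above every C-I library, while C-II and C-III overlapped. The 20 reads of C-I together have an exact Poisson interval of 12.2 to 30.9 at 95%, which covers counting error only. From C-I through C-III the means were 5.51 ± 0.954, 151 ± 46.8 and 191 ± 48.6 (SD, n = 3 each). C-III stood 34.6-fold above C-I and C-II 27.3-fold above C-I. On the scale of log2(normalized count + 1), used for all fold changes below, the difference was 4.50 (SE 0.29) for C-II against C-I and 0.36 (SE 0.29) for C-III against C-II, so that 92.6% of the whole log2 change of 4.86 lay in the earlier step. Of all transcripts tested, 1.14% had a larger log2 fold change between C-II and C-I.

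Glyma11g14670.1 (SCARECROW-like 14) was already present at C-I and was higher at each later stage of the cotyledon. It had 68.7, 37.8 and 23.3 normalized counts at C-I, 109, 118 and 91.6 at C-II, and 152, 164 and 209 at C-III. The ranges of the 3 stages did not overlap. The means in that order were 43.2 ± 23.2, 106 ± 13.5 and 175 ± 30.3 (SD, n = 3 each), and C-III was 4.04-fold above C-I. The log2 difference was 1.40 (SE 0.31) for C-II against C-I, 0.71 (SE 0.31) for C-III against C-II and 2.11 (SE 0.31) for C-III against C-I. The earlier step held 66.5% of the whole change. Replicate 1 of C-I, with 23 reads, was the highest of its stage, and without it the log2 difference of C-III from C-I was 2.50.

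A transcript was called where its adjusted p, from limma with Benjamini-Hochberg adjustment over all tested transcripts, was under 0.05 and its absolute log2 fold change was over 1.5. For C-II against C-I, 1 of the 2 members (Glyma10g37640.1) was called higher, beside 11.6% of all tested transcripts. For C-III against C-II neither was, beside 3.65% of all tested transcripts. For C-III against C-I both were, beside 14% of all tested transcripts. These counts describe loci that were chosen with the comparisons known and are not evidence of their own. Seed storage transcripts were lower in C-II and C-III than in C-I, with 1 of their 8 loci at 0 in every C-II library and 5 in every C-III library, and the summed counts of 29 light harvesting loci had medians of 77262, 67637 and 11340 from C-I through C-III. The part of these shifts in the values of the 2 loci was not tested.

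**Figure D1:**
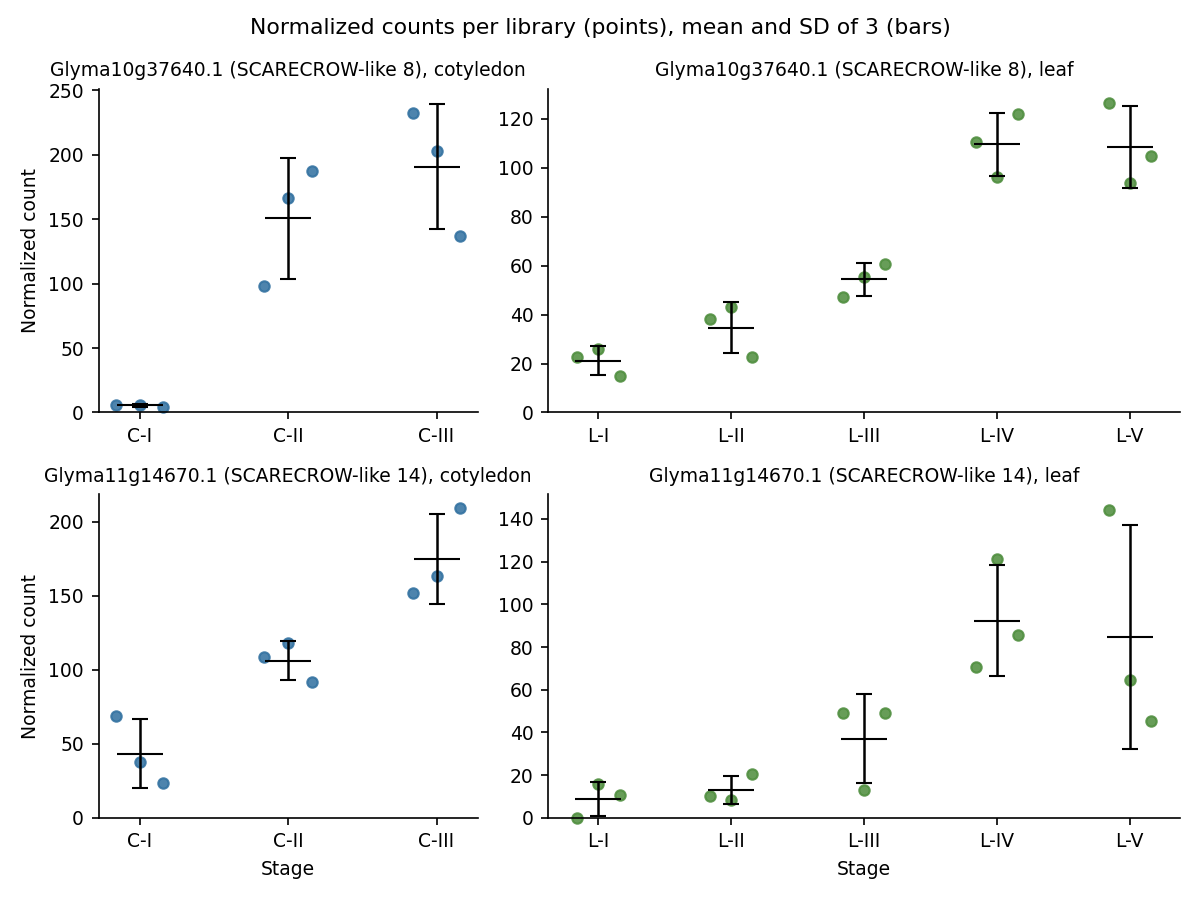
Normalized counts (vertical axes, linear from 0) of Glyma10g37640.1 and Glyma11g14670.1 in each library by stage, cotyledon in blue and leaf in green; points are libraries, the wide tick is the mean and the bars 1 SD of 3 replicates. Glyma10g37640.1 is near 0 at C-I and at 98.0 or above in every C-II and C-III library, while Glyma11g14670.1 climbs over all 3 cotyledon stages, and in leaf both are highest at L-IV and L-V.

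In leaves, Glyma10g37640.1 was higher at each stage up to L-IV and level from L-IV to L-V. It had 22.7, 26.1 and 14.8 normalized counts at L-I, 38.2, 43.0 and 22.8 at L-II, and 47.3, 55.3 and 60.8 at L-III. At L-IV it had 111, 96.1 and 122, and at L-V 127, 93.5 and 105. The libraries of L-III lay above those of L-II, and those of L-IV and L-V above those of L-III, whereas L-I overlapped with L-II and L-IV with L-V. The log2 difference was 0.67 (SE 0.29) for L-II against L-I, 0.68 for L-III against L-II, 0.99 for L-IV against L-III and -0.02 for L-V against L-IV, with the same SE. L-V averaged 108 ± 16.8 and L-I 21.2 ± 5.81 (SD, n = 3 each), a 5.10-fold difference, or 2.32 (SE 0.29) on the log2 scale. Without replicate 1 of L-V it was 2.21 (SE 0.32).

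The leaf values of Glyma11g14670.1 followed the same order of stages but varied more between replicates. The libraries had 0, 15.7 and 10.9 normalized counts at L-I, 10.1, 8.36 and 20.6 at L-II, and 49.0, 13.1 and 49.1 at L-III. At L-IV they had 70.5, 121 and 85.5, and at L-V 144, 64.8 and 45.4. Only L-III and L-IV of the neighbouring stages did not overlap. L-II overlapped with L-I, and L-V with L-III as well as with L-IV. The coefficient of variation between replicates ran from 28.2% at L-IV to 90.8% at L-I, against 11.8% to 30.4% for Glyma10g37640.1 in the same libraries.

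For Glyma11g14670.1 the log2 difference was 1.17 for L-II against L-I, 1.33 for L-III against L-II, 1.47 for L-IV against L-III and -0.26 for L-V against L-IV (SE 0.82 each). L-V averaged 84.8 ± 52.4 and L-I 8.84 ± 8.03 (SD, n = 3 each), 9.59-fold apart and 3.71 (SE 0.82) on the log2 scale. That size rests on replicate 1 of L-I, the shallowest library, in which 0 reads were found and whose detection limit was 8.52 normalized counts. Without it the log2 difference of L-V from L-I was 2.44 (SE 0.59), the ratio of means was 6.40, and L-II differed from L-I by -0.10. Without replicate 1 of L-V, which had the highest value of all leaf libraries, the log2 difference was 3.25 (SE 0.91) and the ratio 6.23.

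As in cotyledon, the calls of the 2 members describe loci chosen with the comparisons known and are not evidence of their own. Both were called higher in L-V than in L-I, beside 11.9% of all tested transcripts. Neither was called at any step between neighbouring leaf stages, where 5.02% of tested transcripts were called higher in L-II than in L-I, 0.664% in L-III than in L-II, 1.78% in L-IV than in L-III and 0.00785% in L-V than in L-IV. The summed AtNAP orthologs rose up to L-IV, as the member means did. In L-V against L-IV the members had log2 differences of -0.02 and -0.26. The 4 AtNAP loci tested of the 5 had a median of 1.13 in that step, all 4 positive. In L-III against L-II only 2 of those 4 were positive, so the sum hides a split. The summed light harvesting transcripts were lower at each later stage, with medians of 115984, 103071, 64293, 29583 and 17254 from L-I through L-V. Their part in the values of the 2 loci was not tested.

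Set side by side, the members differed most in the size of their cotyledon change. The log2 difference of C-III from C-I was 4.86 for Glyma10g37640.1 and 2.11 for Glyma11g14670.1. In leaf that of L-V from L-I was 2.32 for Glyma10g37640.1 and 3.71 for Glyma11g14670.1. Without replicate 1 of L-I, the library with 0 reads of Glyma11g14670.1, the leaf values in the same order were 2.39 and 2.44. Both members had their lowest stage mean at the first stage of each tissue. Over the 24 libraries, with log2 values centred within each tissue, the correlation of the pair was 0.637. Within a tissue it was higher, at 0.874 over the 9 cotyledon libraries and 0.773 over the 15 leaf libraries. These correlations are a description of values that share libraries and depth.

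A further 4 loci carry either annotation, and they were seen through their own unique reads. SCARECROW-like 8 is also the annotation of Glyma20g30150 and Glyma16g29900, and SCARECROW-like 14 that of Glyma11g14720 and Glyma12g06630. The table of annotations that named them lists genes that changed in the leaf libraries, so that their leaf values were used in making it and their cotyledon values were not. In the paper's counts, many genes that changed in leaf also changed in cotyledon. The cotyledon values of these loci are therefore not fully independent of that choice.

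Glyma20g30150.1 followed Glyma10g37640.1 closely. It had 14.9, 13.2 and 18.5 normalized counts at C-I, 109, 119 and 113 at C-II, and 173, 160 and 163 at C-III, without overlap of the stages. It rose in C-II against C-I (log2 2.81, SE 0.20, limma adjusted p = 2.7e-07) and in C-III against C-I (log2 3.34, SE 0.20, limma adjusted p = 2.9e-08). The log2 difference of 0.53 between C-III and C-II was not called (limma adjusted p = 0.085). Its leaf means from L-I through L-V were 21.1, 39.5, 47.0, 87.9 and 115. At L-V replicate 1 had 194 normalized counts and the others 80.2 and 71.7, and the log2 difference of L-V from L-I was 2.26 (SE 0.34), or 1.82 (SE 0.28) without that library. The correlation with Glyma10g37640.1 over the 24 libraries was 0.953, rank 23 among 28374 transcripts. In C-II against C-I the log2 fold change was 4.50 for Glyma10g37640.1 and 2.81 for Glyma20g30150.1, a difference between loci that was not tested.

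Glyma16g29900.1 took another course under the same annotation. It had 191, 170 and 199 normalized counts at C-I, 171, 215 and 246 at C-II, and 911, 1013 and 775 at C-III. C-I and C-II overlapped, and every C-III library lay above both. It rose in C-III against C-II (log2 2.09, SE 0.18, limma adjusted p = 6.3e-06), a step that held 92.9% of its whole cotyledon change, while C-II against C-I gave 0.16 (SE 0.18, limma adjusted p = 0.50). In leaf its means from L-I through L-V were 221, 107, 131, 303 and 377, so the lowest values were at L-II and L-III rather than at the first stage. The L-V mean rests on replicate 1, with 631 normalized counts beside 253 and 247 in the others, and the log2 difference of L-V from L-I was 0.63 (SE 0.35), or 0.19 (SE 0.31) without it. Its correlation with Glyma10g37640.1 was 0.556.

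The other SCARECROW-like 14 loci peaked at C-II rather than at C-III. Glyma11g14720.2 had 32.8, 40.4 and 47.8 normalized counts at C-I, 158, 126 and 171 at C-II, and 99.5, 84.4 and 108 at C-III. Glyma12g06630.2 had 44.8, 92.3 and 47.8 at C-I, 212, 142 and 181 at C-II, and 50.9, 114 and 126 at C-III. Both rose in C-II against C-I, by a log2 fold change of 1.89 (SE 0.21, limma adjusted p = 1.5e-05) for Glyma11g14720.2 and 1.58 (SE 0.35, limma adjusted p = 0.0030) for Glyma12g06630.2. For C-III against C-II the values were -0.63 (limma adjusted p = 0.063) and -0.95 (limma adjusted p = 0.085), neither of which was called, although all C-III libraries of both lay below all C-II libraries. Glyma11g14670.1 had a positive value of 0.71 in that step.

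In leaf, Glyma11g14720.2 averaged 20.9, 41.2, 63.9, 80.8 and 59.6 normalized counts over the stages from L-I through L-V. Glyma12g06630.2 averaged 13.2, 21.1, 24, 93.3 and 35.3 over the same stages. Their log2 differences of L-V from L-I were 1.49 (SE 0.37) and 1.26 (SE 0.66), and 1.44 and 1.62 without replicate 1 of L-V. All 3 SCARECROW-like 14 transcripts thus had their highest leaf mean at L-IV, but L-IV overlapped with L-V in each. The coefficient of variation at L-IV was 28.2% for Glyma11g14670.1, the lowest of its leaf stages. It was 38.3% for Glyma11g14720.2 and 54.3% for Glyma12g06630.2. Correlations with Glyma11g14670.1 over the 24 libraries were 0.616 for Glyma11g14720.2 and 0.554 for Glyma12g06630.2.

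**Figure D2:**
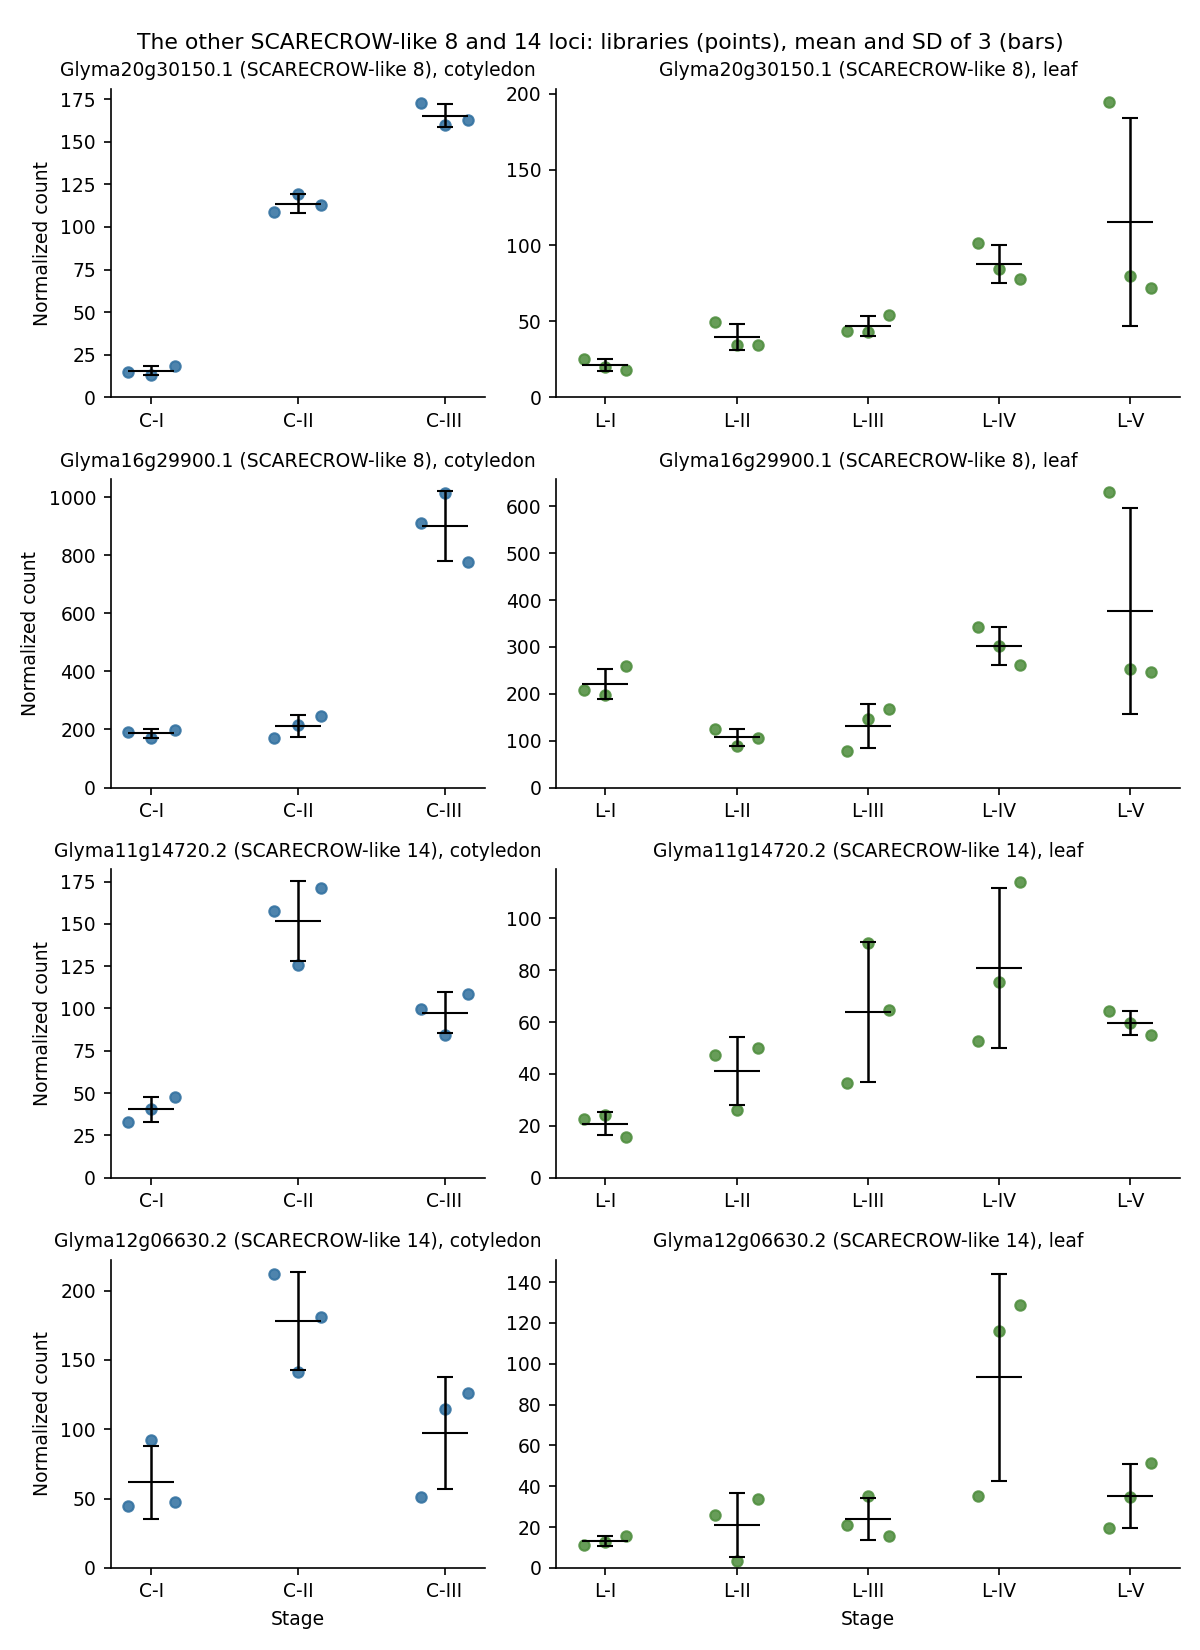
Normalized counts (vertical axes, linear from 0) of the other SCARECROW-like 8 and 14 loci by stage; points are libraries, the wide tick is the mean and the bars 1 SD of 3 replicates, cotyledon in blue and leaf in green. Glyma20g30150.1 climbs in steps like Glyma10g37640.1, Glyma16g29900.1 climbs at C-III only in cotyledon, and Glyma11g14720.2 and Glyma12g06630.2 are highest at C-II; replicate 1 of L-V is the high point of the SCARECROW-like 8 pair.

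**Figure D3:**
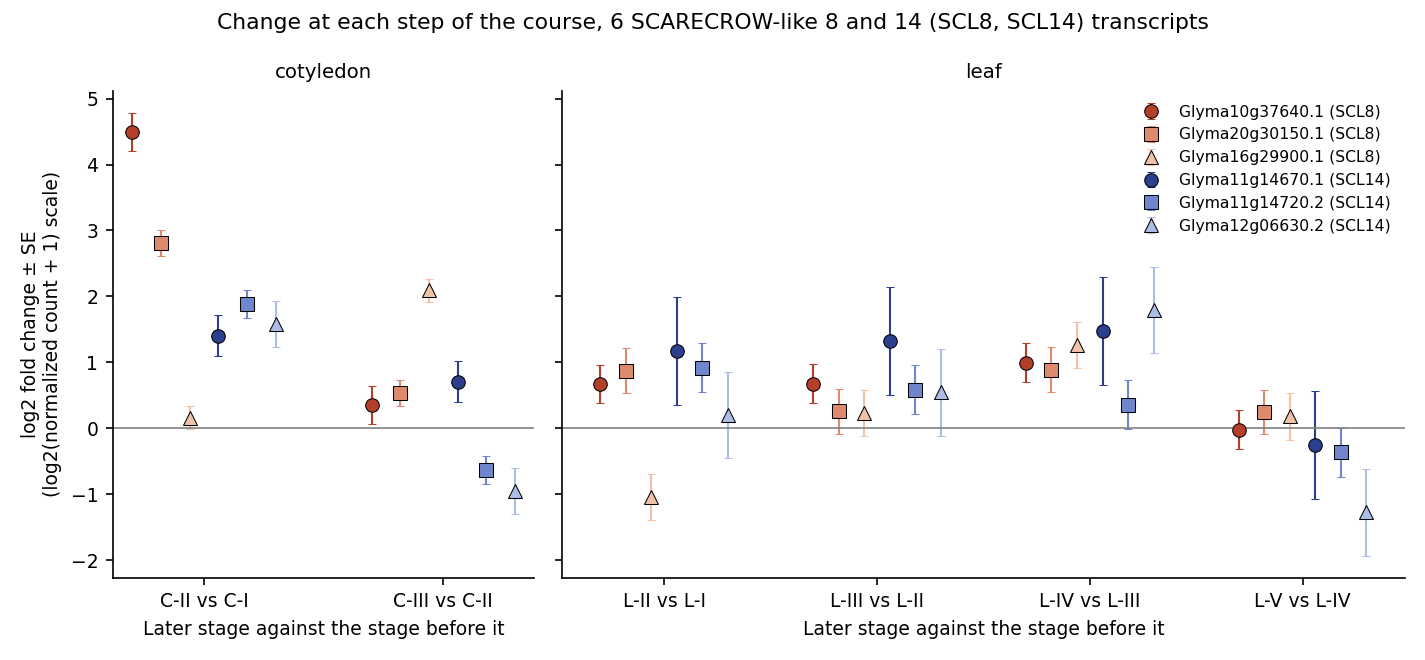
Log2 fold change with its standard error (vertical axis, log2(normalized count + 1) scale) between each stage and the stage before it, for the 3 SCARECROW-like 8 (SCL8, red) and 3 SCARECROW-like 14 (SCL14, blue) transcripts. At C-II against C-I, Glyma10g37640.1 is at 4.50 and Glyma16g29900.1 at 0.16, and at C-III against C-II Glyma16g29900.1 is at 2.09 while both SCARECROW-like 14 relatives are below 0.

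The wider family was described with a list of 20 loci whose annotation names GRAS, SCARECROW-like or RGA-like proteins, of which 18 are loci other than the 2 described here, with 20 transcripts, all tested in both tissues. The annotations came from sheets of genes that had changed in leaf, and some sheets were held in part, so other GRAS loci may be missing. Many genes that changed in leaf also changed in cotyledon in the paper's counts. Shares over all tested transcripts are thus no matched background for this list, and an excess over them is not evidence about GRAS genes. In C-III against C-I, 9 of the 20 transcripts rose, 3 fell and 8 were not called, beside 14% of all tested transcripts called higher and 16.8% called lower. The median log2 fold change was 1.55 in the list and -0.03 over all tested transcripts. In C-II against C-I, 11 rose, beside 11.6% of all, and 2 fell, beside 13.8% of all. In C-III against C-II, 1 rose (Glyma16g29900.1), beside 3.65% of all tested transcripts, and the other 19 were not called.

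Of the list members with a known role in Arabidopsis, the SCARECROW-like 3 loci, whose Arabidopsis counterpart promotes gibberellin responses against the DELLA proteins, rose in cotyledon. Glyma04g28490.1 averaged 40.8 ± 19.2 normalized counts at C-III and 8.91 ± 1.66 at C-I, and Glyma11g20980.1 averaged 56.8 at C-III and 11.8 at C-I. SCARECROW-like 13, which takes part in phytochrome signalling in Arabidopsis, was represented by Glyma09g01440. Its transcript Glyma09g01440.1 averaged 38.5 ± 3.73 at C-III and 2.79 ± 0.944 at C-I (log2 3.41, SE 0.37, limma adjusted p = 7.3e-06). The RGA-like 2 locus, a DELLA gene, had 351 at C-III and 353 at C-I for Glyma18g04500.1 (log2 0.0044, SE 0.16, limma adjusted p = 0.99).

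The largest rise of the list beside Glyma10g37640.1 was that of Glyma20g34260.1, a GRAS locus with no further name, with 156 ± 23.2 at C-III and 13.1 ± 6.93 at C-I (log2 3.57, SE 0.30, limma adjusted p = 7.8e-07). The 3 called falls rested on few reads at C-III. Glyma06g23940.1 averaged 0.487 at C-III and 4.82 at C-I (log2 -1.89, limma adjusted p = 0.025), and Glyma06g41500.3 averaged 1.44 at C-III and 6.47 at C-I (log2 -1.80, limma adjusted p = 0.019), both with C-III means under the mean detection limit of that stage, 3.06. Glyma04g21340.1 averaged 3.96 at C-III, above that limit, and 14.5 at C-I (log2 -1.69, limma adjusted p = 0.041). Without replicate 3 of C-I none of the 3 falls was called, and without replicate 2 or replicate 3 of C-III 1 was.

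In L-V against L-I, 10 of the 20 transcripts were called higher, 4 lower and 6 neither, beside 11.9% of all tested transcripts called higher and 19.2% called lower. Most of the list was drawn from these leaf libraries, so this count is not independent evidence. Without replicate 1 of L-V the counts were 9 and 4. Glyma04g28490.1 (SCARECROW-like 3) averaged 79.6 ± 27.5 normalized counts at L-V and 15.8 ± 14.2 at L-I, where replicate 1 had 0 reads, as it had for Glyma11g14670.1. Its log2 difference was 3.21 (SE 0.84), 3.30 without replicate 1 of L-V and 1.67 without replicate 1 of L-I. Glyma03g10320.1 averaged 100.3 ± 10.2 at L-V and 16.7 ± 5.53 at L-I, a log2 difference of 2.55 (SE 0.27), or 2.64 without replicate 1 of L-V. The lowest log2 values were those of Glyma06g23940.1, with 0.244 at L-V and 21.2 at L-I, and of Glyma04g21340.1, with 1.27 at L-V and 27.8 at L-I. They were -4.20 and -3.88, and without replicate 1 of L-V -4.07 for Glyma06g23940.1 and -3.86 for Glyma04g21340.1. Both L-V means were under the mean detection limit of that stage, 2.65. Glyma18g04500.1 (RGA-like 2) averaged 160 at L-V and 576 at L-I, a log2 difference of -1.83 (SE 0.26), or -1.79 without replicate 1 of L-V.

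**Figure D4:**
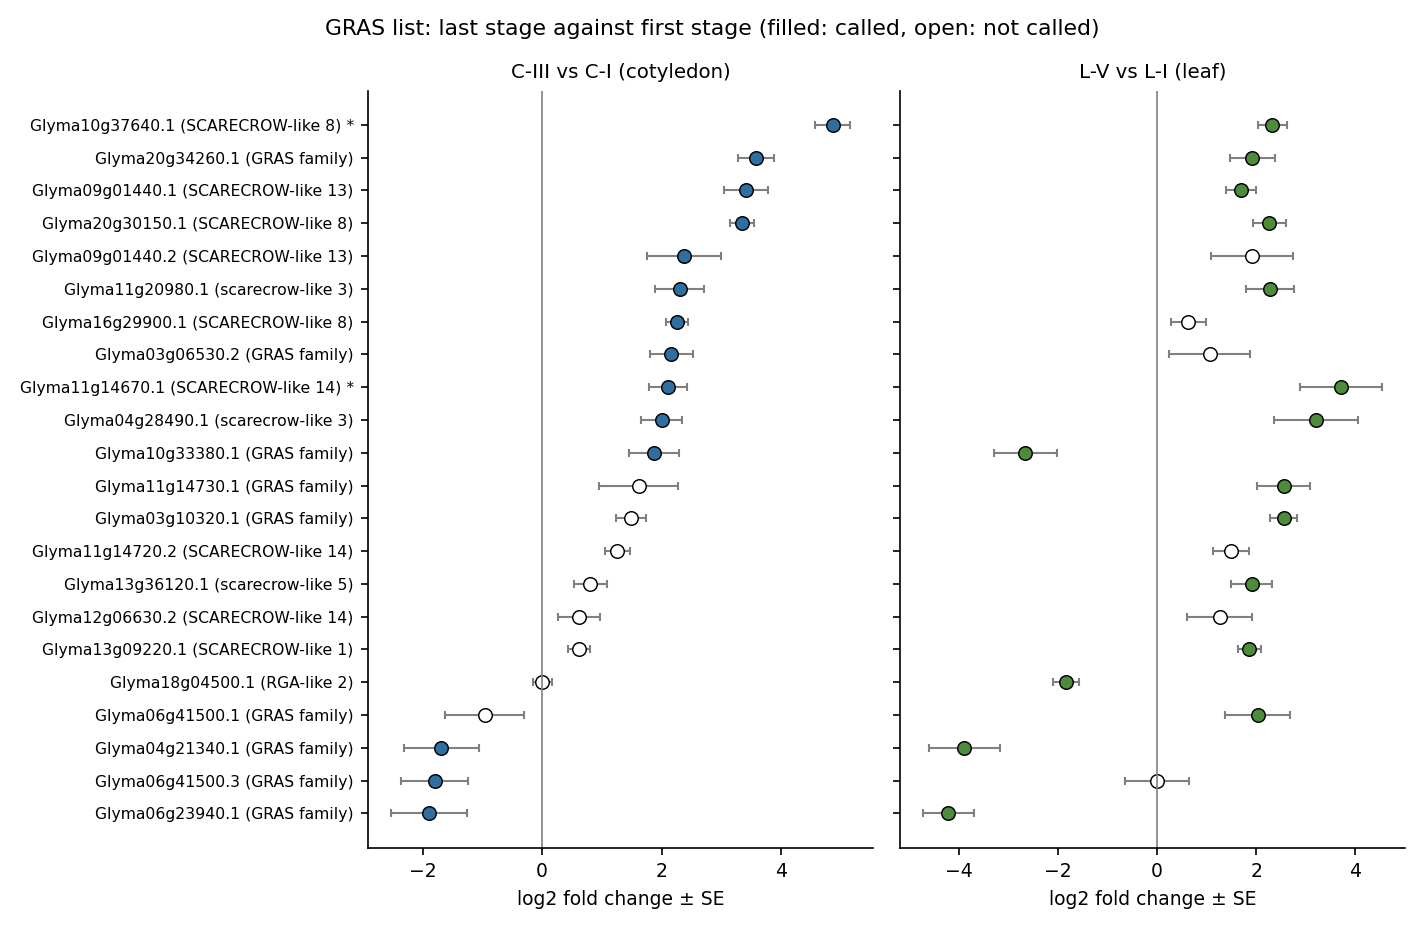
Log2 fold change with its standard error (horizontal axes) of the 22 GRAS list transcripts between C-III and C-I (left) and between L-V and L-I (right), ordered by the cotyledon value; filled points were called and open points were not, and an asterisk marks Glyma10g37640.1 and Glyma11g14670.1. Glyma10g37640.1 has the highest cotyledon value (4.86) and Glyma11g14670.1 the highest leaf value (3.71). Without replicate 1 of L-I, at 0 reads, the latter is 2.44 and below the 2.79 of Glyma03g10320.1. The falls in leaf reach -4.20, for Glyma06g23940.1, whose L-V mean was under the mean detection limit of that stage.

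Genes of the kinds that SCARECROW-like 14 acts on in Arabidopsis were followed with a list of 26 detoxification loci, again named from the sheets of leaf genes, with 27 transcripts. As for the GRAS list, the shares over all tested transcripts are no matched background for a list drawn from leaf changes. An excess over them in cotyledon is not evidence about the list. In C-III against C-I, 13 of the 26 tested transcripts rose, 4 fell and 9 were not called, beside 14% of all tested transcripts called higher and 16.8% called lower, and the median log2 fold change was 1.49 in the list and -0.03 over all tested transcripts. By enzyme class, 8 of 16 UDP-glycosyltransferase transcripts rose and 3 fell, and 4 of 8 glutathione S-transferase transcripts rose and 1 fell. UDP-glycosyltransferases attach sugars, and glutathione S-transferases attach glutathione, to reactive or foreign compounds. The largest rises were those of Glyma08g13230.1 (UDP-glycosyltransferase 74 F1), with 896 at C-III and 6.89 at C-I (log2 7.51, SE 0.68, limma adjusted p = 1.3e-06), and Glyma09g05440.1 (a cytochrome P450 of subfamily 81D), with 113 at C-III and 3.71 at C-I (log2 5.08, SE 0.64, limma adjusted p = 2.6e-05).

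The deepest fall was that of Glyma08g18640.1 (glutathione S-transferase TAU 19), with 169 normalized counts at C-III and 12150 at C-I (log2 -6.17, SE 0.21, limma adjusted p = 3.3e-10). Other loci with the same annotation were named after their values were seen. Glyma15g40190.1 averaged 3366 at C-III and 310 at C-I, and Glyma15g40250.1, which was not called, 2032 at C-III and 1014 at C-I. Glyma16g03760.2 (UDP-glucosyl transferase 73B1) averaged 0.765 at C-III and 47.4 at C-I. Its C-III mean was under the mean detection limit of that stage, 3.06, and the C-I mean of Glyma09g05440.1 was under that of C-I, 4.27. In L-V against L-I, 20 of 27 transcripts were called higher and 4 lower, beside 11.9% and 19.2% of all, with and without replicate 1 of L-V, in the tissue from which the list was drawn. Glyma20g23420.1 (glutathione S-transferase TAU 8) averaged 537 at L-V and 7.55 at L-I, and Glyma19g03010.1 (UDP-glycosyltransferase 74 F1) averaged 1272 at L-V and 16.3 at L-I. Their log2 differences were 6.75 and 6.09, and without replicate 1 of L-V 6.73 for Glyma20g23420.1 and 5.56 for Glyma19g03010.1. Without replicate 1 of L-I, the shallowest library, they were 5.59 for Glyma20g23420.1 and 5.71 for Glyma19g03010.1. Both were then below the 5.85 of Glyma02g11630.1. Among those lower, Glyma01g39570.2 averaged 0.685 at L-V, under the mean detection limit of that stage, 2.65, and 97.8 at L-I. Glyma16g03760.1 averaged 8.70 at L-V and 181 at L-I. The log2 difference was -6.06 for Glyma01g39570.2, or -5.79 without replicate 1 of L-V, and -4.93 for Glyma16g03760.1, or -3.66 without it. Whether any of these genes is a target of Glyma11g14670 was not tested.

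The transcripts most like each member were ranked by the Pearson correlation of log2(normalized count + 1), centred within each tissue, over the 24 libraries, among 28374 transcripts with a mean normalized count of at least 10 in each tissue. For Glyma10g37640.1 the highest were Glyma13g19370.1 (cation/H+ exchanger 20) at 0.975, Glyma06g13910.1 at 0.974, Glyma06g12580.1 at 0.973, Glyma09g31850.1 at 0.964 and Glyma11g11930.2 (GATA transcription factor 6) at 0.963. Glyma13g19370.1 averaged 129, 1933 and 2341 normalized counts from C-I through C-III, and in leaf 1240, 1702, 4085, 6502 and 5154 from L-I through L-V. Like Glyma10g37640.1, all 5 had their lowest cotyledon mean at C-I and their lowest leaf mean at L-I, which picking them by likeness favours. Glyma06g12580.1, for example, had means of 4.73, 184 and 218 over the cotyledon stages.

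For Glyma11g14670.1 the highest correlations were lower, at 0.930 for Glyma03g41750.1, 0.922 for Glyma06g09520.1 (a leucine-rich receptor-like protein kinase), 0.921 for Glyma04g07980.1, and 0.919 for both Glyma19g00460.2 and Glyma15g08040.1. Glyma03g41750.1 averaged 18.1, 93.7 and 113 normalized counts from C-I through C-III, and in leaf 7.51, 20.3, 53.6, 147 and 158 from L-I through L-V. In Glyma15g08040.1 the later cotyledon step was the larger, with means of 302, 407 and 695 over the cotyledon stages. None of the other GRAS loci annotated as SCARECROW-like 8 or 14 was among the 5 transcripts most like either member. The points of these correlations share libraries and depth, and the replicates of a stage cluster, so they are a description of likeness in pattern only.

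**Figure D5:**
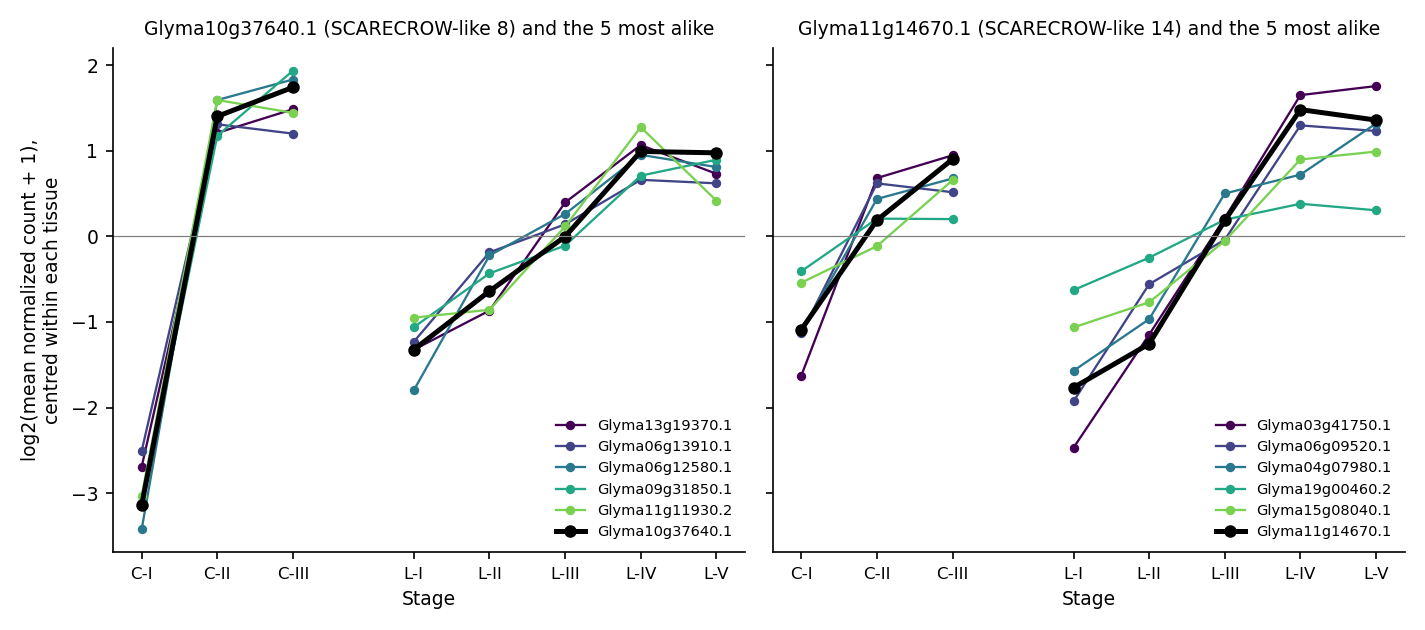
Stage means as log2(mean normalized count + 1), centred within each tissue (vertical axis), for each member (thick black line) and the 5 transcripts most like it (thin lines), by stage. In the left panel all lines start far below 0 at C-I and their larger cotyledon step is that from C-I to C-II, with Glyma09g31850.1 still climbing after it (mean 2109 at C-III and 1245 at C-II), and in the right panel they spread more at C-I and L-I.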

How the data were processed

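RNA-seq reads of 24 libraries (9 of cotyledon, 15 of leaf, 3 biological replicates per stage) had been processed before deposit. The authors aligned reads to Gmax_189 transcripts with Bowtie, kept reads that matched 1 transcript, scaled the counts with DESeq 1.0 (version as in the submitters' processing notes) and deposited variance-stabilized values on the log2 scale, 1 table per tissue. Cotyledon and leaf libraries were run on different instruments. Normalized counts had been planned for, so the deposited log2 values were converted back with the closed form of the transformation, which gave whole reads within a tolerance of 0.05 in 100% of values and matched the authors' listed normalized counts for 1999 transcripts per tissue (largest relative gap 4.89e-06).

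A transcript was tested where some stage had 10 or more reads summed over its replicates, which left 53357 in cotyledon and 50940 in leaf. One limma fit per tissue (limma 3.58.1, R 4.3.3, intensity trend) used log2(normalized count + 1) of all stages, with Benjamini-Hochberg adjustment, and a call needed an adjusted p under 0.05 beside a log2 change of more than 1.5 either way. The pseudocount understates the change of transcripts with few reads. The fit was also run on simulated counts with known changes and a single fixed spread for all transcripts. That run is not used as support here. The p-values measure the spread between plants of a single growth experiment. Ratios of means and intervals (exact Poisson, 95%) were computed from normalized counts and reads, and 3 reads served as the detection limit.

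The members and lists were chosen with earlier results of these data known. Named transcripts are all those of the 2 loci and of the other SCARECROW-like 8 and 14 loci, those with a known role in Arabidopsis, up to 2 called rises and 2 called falls per list and tissue (the 2 loci left out), and the 5 most alike per member. Replicate numbers did not pair the samples (correlation of deviations -0.076 to 0.070 in cotyledon, -0.197 to 0.200 in leaf). Alternatives were other pseudocounts, filters and scaling, the deposited values, a replicate block, fits of 2 stages, and leaving out each library.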

Additional observations from a re-analysis of the deposited data

Results flagged for a closer look

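In 4 transcripts of the lists all libraries of the last stage lay on 1 side of the first stage in cotyledon and on the opposite side in leaf, which was not tested as a difference. Glyma10g33380.1, a GRAS locus, had a log2 fold change of 1.88 (SE 0.42) for C-III against C-I (33.4 and 8.72 normalized counts) and -2.65 (SE 0.64) for L-V against L-I (4.16 and 27.1), 4.53 apart. Glyma10g07090.1 (UDP-glucosyl transferase 73C2) had 2.41 in cotyledon and -0.54 in leaf, 2.96 apart. Glyma19g37108.1, with the same annotation, had -1.03 in cotyledon and 2.41 in leaf, a difference of -3.44. Glyma18g13630.1 (glutathione S-transferase PHI 9) had -0.86 in cotyledon and 0.72 in leaf, a difference of -1.58. Glyma10g37640.1 and Glyma11g14670.1 were not among them. Without replicate 1 of L-V the leaf values were -2.56 for Glyma10g33380.1, -0.70 for Glyma10g07090.1, 2.58 for Glyma19g37108.1 and 0.87 for Glyma18g13630.1.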

How the results depend on the processing

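The members kept a positive log2 fold change for C-III against C-I and L-V against L-I under every alternative run. For Glyma10g37640.1, a pseudocount of 5 gave 3.84 for C-II against C-I and 4.19 for C-III against C-I, and the deposited values as they stand gave 4.11 and 4.46. For Glyma11g14670.1, a pseudocount of 0.1 gave 2.23 for L-II against L-I and 4.86 for L-V against L-I, because replicate 1 of L-I had 0 reads. Leaving out single libraries gave Glyma11g14670.1 a range of 1.04 to 1.80 for C-II against C-I, 1.74 to 2.50 for C-III against C-I, -0.10 to 1.93 for L-II against L-I and 2.44 to 4.47 for L-V against L-I, the lowest of the last without replicate 1 and the highest without replicate 2 of L-I. The 3 falls of the GRAS list in C-III against C-I, beside the 2 loci, became 1 with a pseudocount of 0.1, without the filter and with the deposited values, 0 with a pseudocount of 5 and with a mean of at least 10, where 15 transcripts were left, and 0 to 3 without single libraries. With a mean of at least 10, 2 GRAS transcripts were called lower in L-V against L-I. With a replicate block, 10 GRAS transcripts were called higher in C-III against C-I in place of 9, and no count of the lists moved by over 1.5 times. Upper-quartile scaling shifted the median of all transcripts by 0.16 in L-II against L-I, 0.15 in L-III against L-I and 0.11 in L-V against L-I, and changed no direction among the called members and named transcripts. Depth limits Glyma10g37640.1 at C-I and Glyma11g14670.1 at L-I, where libraries held 0 to 15 reads.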
